A study of Homo sapiens with 28 samples.

Results

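The genes described here are 10 markers of fibroblasts and pericytes: DCN, FBLN1, FBLN2, POSTN, FAP, THY1, ACTA2, TAGLN, RGS5 and PDGFRA. They were chosen by name, with earlier results of these data known. They are 10 of 19775 genes with a probe set of their own on the array, and have 37 of the 41091 probe sets that carry 1 gene symbol. RNA was measured in 28 subcutaneous tumours grown from 786-O or A498, both established human clear cell renal carcinoma lines, in female athymic nude/beige mice that were 6 to 8 weeks old at injection. Each array was an Affymetrix HG-U133 Plus 2.0, which carries probes for human transcripts, and its values are linear probe set signals without a unit. The 786-O groups were 5 tumours resistant to sorafenib with 5 untreated ones of the same arm, and 4 resistant to sunitinib with 5 untreated ones. The A498 groups were 5 tumours resistant to sorafenib with 4 untreated ones. Drug was given by gavage on 6 of 7 days a week from a diameter of 12 mm, as 80 mg/kg sorafenib or 53.6 mg/kg sunitinib, and both drugs inhibit VEGF and PDGF receptors. Tumours were taken at 12 mm or at the permitted limit of 20 mm. The labels do not state which of these sizes the untreated tumours had, so treatment and size cannot be told apart here. Nor do they say that tumours are from different mice, so each p-value is set against the scatter of these samples, which may be technical in part.

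Fibroblasts lay down the collagen matrix of a tumour, and pericytes wrap its small vessels and are held there by PDGF from the endothelium. In a xenograft the carcinoma cells are human and both of these cell types come from the mouse host. A human probe can bind mouse RNA where the 2 species' sequences are alike, and a carcinoma line can itself express a gene used as a stromal marker. The signals below therefore do not give the species or the cell type of the RNA, and in whole tumours fewer cells of a type and less RNA per cell cannot be told apart.

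The RefSeq promoter tables (GRCh38.p14, 250 bases before to 50 after a start) held 10 entries for 6 of the 10 genes. Promoters are shown for the 3 genes that were lower in resistant 786-O tumours of the sorafenib arm (RGS5, POSTN and FBLN1) and for ACTA2, which did not pass the test. Capitals mark a TATAAA or TATATA on either strand, a pair of TATA-box spellings that may overlap each other; 13.7% of all 35116 promoters of the same length hold one. The sequences run 5′ to 3′ along the gene, for RGS5 on the minus strand at chr1:163202867-163203166 and chr1:163321686-163321985, for POSTN on the minus strand at chr13:37598719-37599018, for FBLN1 on the plus strand at chr22:45502633-45502932 and for ACTA2 on the minus strand at chr10:88952724-88953023.
RGS5, start within the gene: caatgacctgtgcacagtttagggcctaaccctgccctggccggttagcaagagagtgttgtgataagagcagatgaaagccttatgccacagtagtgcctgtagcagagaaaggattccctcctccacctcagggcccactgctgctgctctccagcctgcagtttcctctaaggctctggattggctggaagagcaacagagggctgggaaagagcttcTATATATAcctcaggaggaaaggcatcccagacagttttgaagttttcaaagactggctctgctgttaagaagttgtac
RGS5, start at the gene's 5′ end: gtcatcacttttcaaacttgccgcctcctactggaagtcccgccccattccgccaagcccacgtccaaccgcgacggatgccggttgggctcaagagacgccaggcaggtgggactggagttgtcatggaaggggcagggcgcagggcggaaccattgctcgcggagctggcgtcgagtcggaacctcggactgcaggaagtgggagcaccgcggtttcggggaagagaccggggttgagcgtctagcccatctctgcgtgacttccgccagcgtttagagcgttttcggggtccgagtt
POSTN: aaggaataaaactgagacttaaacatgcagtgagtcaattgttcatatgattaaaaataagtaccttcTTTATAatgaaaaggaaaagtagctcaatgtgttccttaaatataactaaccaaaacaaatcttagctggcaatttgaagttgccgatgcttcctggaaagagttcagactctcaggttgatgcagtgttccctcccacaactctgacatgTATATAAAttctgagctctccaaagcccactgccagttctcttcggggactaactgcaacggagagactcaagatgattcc
FBLN1: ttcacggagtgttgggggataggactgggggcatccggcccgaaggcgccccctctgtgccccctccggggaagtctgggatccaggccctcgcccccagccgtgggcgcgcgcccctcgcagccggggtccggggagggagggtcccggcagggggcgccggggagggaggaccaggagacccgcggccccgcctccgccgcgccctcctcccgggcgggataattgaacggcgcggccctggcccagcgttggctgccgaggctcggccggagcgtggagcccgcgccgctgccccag
ACTA2, start within the gene: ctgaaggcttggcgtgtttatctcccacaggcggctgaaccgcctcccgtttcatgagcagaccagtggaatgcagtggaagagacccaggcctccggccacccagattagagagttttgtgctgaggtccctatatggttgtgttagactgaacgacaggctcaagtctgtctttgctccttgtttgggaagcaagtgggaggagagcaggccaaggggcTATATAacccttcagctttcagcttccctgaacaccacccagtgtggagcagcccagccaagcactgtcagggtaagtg
The inner RGS5 start and the POSTN and ACTA2 starts each held a match that began at position -29, counted from the start. The FBLN1 stretch, the outer RGS5 stretch and the outer ACTA2 start (chr10:88991288-88991587, not shown) held no match. These are matches of letters in a short window and say nothing of which start the tumours used.

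A probe set counted as measured where its signal was above 89.4, the median of all values (6.72 as log2 of the signal plus 16), on at least 4 arrays. By this rule 21 of the 37 probe sets passed and 16 did not, and the leading probe set of a gene, the one of highest mean log2(signal + 16), which stands for the gene below, passed in 9 of the 10 genes. RGS5 (6 of 6 probe sets) and TAGLN (3 of 3) passed throughout, and FBLN1 passed with 4 of 5, DCN with 3 of 7 and FAP with 1 of 1. POSTN and PDGFRA passed with 1 of 4 each, and THY1 and ACTA2 with 1 of 3 each. FBLN2, with 1 probe set, did not pass. The 16 dim probe sets had mean signals of 9.90 to 41.9 over all 28 arrays. All differences below are resistant minus untreated of log2(signal + 16) with their standard error, and fold changes on that scale understate the change of dim genes.

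Of the facts that touch the whole series, the array medians lay between 79.7 and 99.4 and arrays of 1 group correlated at 0.955 to 0.975 over single-symbol probe sets. The 3′ minus 5′ differences of the ACTB and GAPDH controls, a sign of RNA degradation, differed between resistant and untreated groups by -0.03 to 0.05 on the log2 scale (two-sided exact permutation p from 0.238 to 0.984). Between the untreated 786-O sets the ACTB difference averaged 0.455 in the sorafenib arm and 0.226 in the sunitinib arm (exact permutation p = 0.127). Untreated tumour 5 of the sorafenib arm read 1.03, and the other untreated tumours of that arm read from 0.218 to 0.397. The smallest p these sizes allow is 0.00794 for 5 against 5 and 0.0159 for 5 against 4. Renal carcinoma cell markers were well represented, with 7 of 8 listed genes tested. Of pericyte markers outside the 10 genes only 4 of 8 could be tested, since PDGFRB, CSPG4, NOTCH3 and ABCC9 stayed below the limit. Of endothelial markers 3 of 12 could be tested, and CDH5, KDR and VWF stayed below it.

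In 786-O tumours resistant to sorafenib, the pericyte gene RGS5 and the matrix genes FBLN1 and POSTN were lower than in untreated tumours, and none of the 10 genes was higher. These were 3 of 9 member genes tested, where 9.18% of all genes tested were called lower and 5.97% higher (limma, Benjamini-Hochberg adjusted p under 0.05). The median difference of the 9 genes was -0.40, against -0.05 over all 13808 genes tested, and 8 of the 9 differences were negative. Because the genes were chosen with earlier results of these data known, these shares describe them and are not a test of the set. The 3 called genes were also the only ones of the 9 whose groups did not overlap, where 7.40% of all genes tested were lower and 5.08% higher without overlap.

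RGS5 (chromosome 1, 163142299 to 163321735, GRCh38.p14) encodes a regulator that shortens signals of G protein-coupled receptors and is widely used as a pericyte marker. It was measured by its leading probe set at signals of 159, 96.1, 133, 174 and 165 in the 5 resistant tumours. The 5 untreated tumours read 245, 331, 332, 743 and 488. Every untreated tumour lay above every resistant one, and the untreated tumours were the more widely spread. The difference was -1.38 ± 0.23 (adjusted p = 0.000143), with means of 145 ± 31.4 in resistant and 428 ± 197 in untreated tumours (SD, n = 5 each). The stricter filter left RGS5 untested. It remained called under the other 13 alternatives and with any 1 array left out, with differences of -2.32 to -0.93 and adjusted p from 1.14e-05 to 0.00842.

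FBLN1 (chromosome 22, 45502883 to 45601135) encodes fibulin-1, a secreted glycoprotein of basement membranes and elastic fibres. Its leading probe set read 138, 42.0, 76.1, 83.9 and 49.5 in the resistant tumours. The untreated tumours read 404, 311, 329, 253 and 188. The groups did not overlap, and 4 of the 5 resistant tumours were below the limit for a measured signal. The difference was -1.78 ± 0.44 (limma adjusted p = 0.00643). With the mean of all 5 FBLN1 probe sets in its place the difference was -0.53 with an adjusted p of 0.0516, the highest over its alternatives (lowest 0.00135).

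POSTN (chromosome 13, 37562585 to 37598768) encodes periostin, a matricellular protein made by activated fibroblasts. Its 1 measured probe set read 297, 118, 66.6, 197 and 198 in resistant tumours. Untreated tumours read 313, 385, 497, 439 and 404. The groups did not overlap, though the highest resistant tumour and the lowest untreated tumour were close. The difference was -1.27 ± 0.38 (limma adjusted p = 0.0240). This call was the least firm of the 3: it was lost without untreated tumour 3 (adjusted p = 0.0516) or 4 (0.0502), without resistant tumour 2 (0.0560) or 3 (0.0778), without the 2 arrays of highest ACTB difference (0.0580), and with both untreated 786-O sets pooled (-0.81, adjusted p = 0.123). Over all its alternatives the adjusted p ran from 0.00807 to 0.123.

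**Figure D1:**
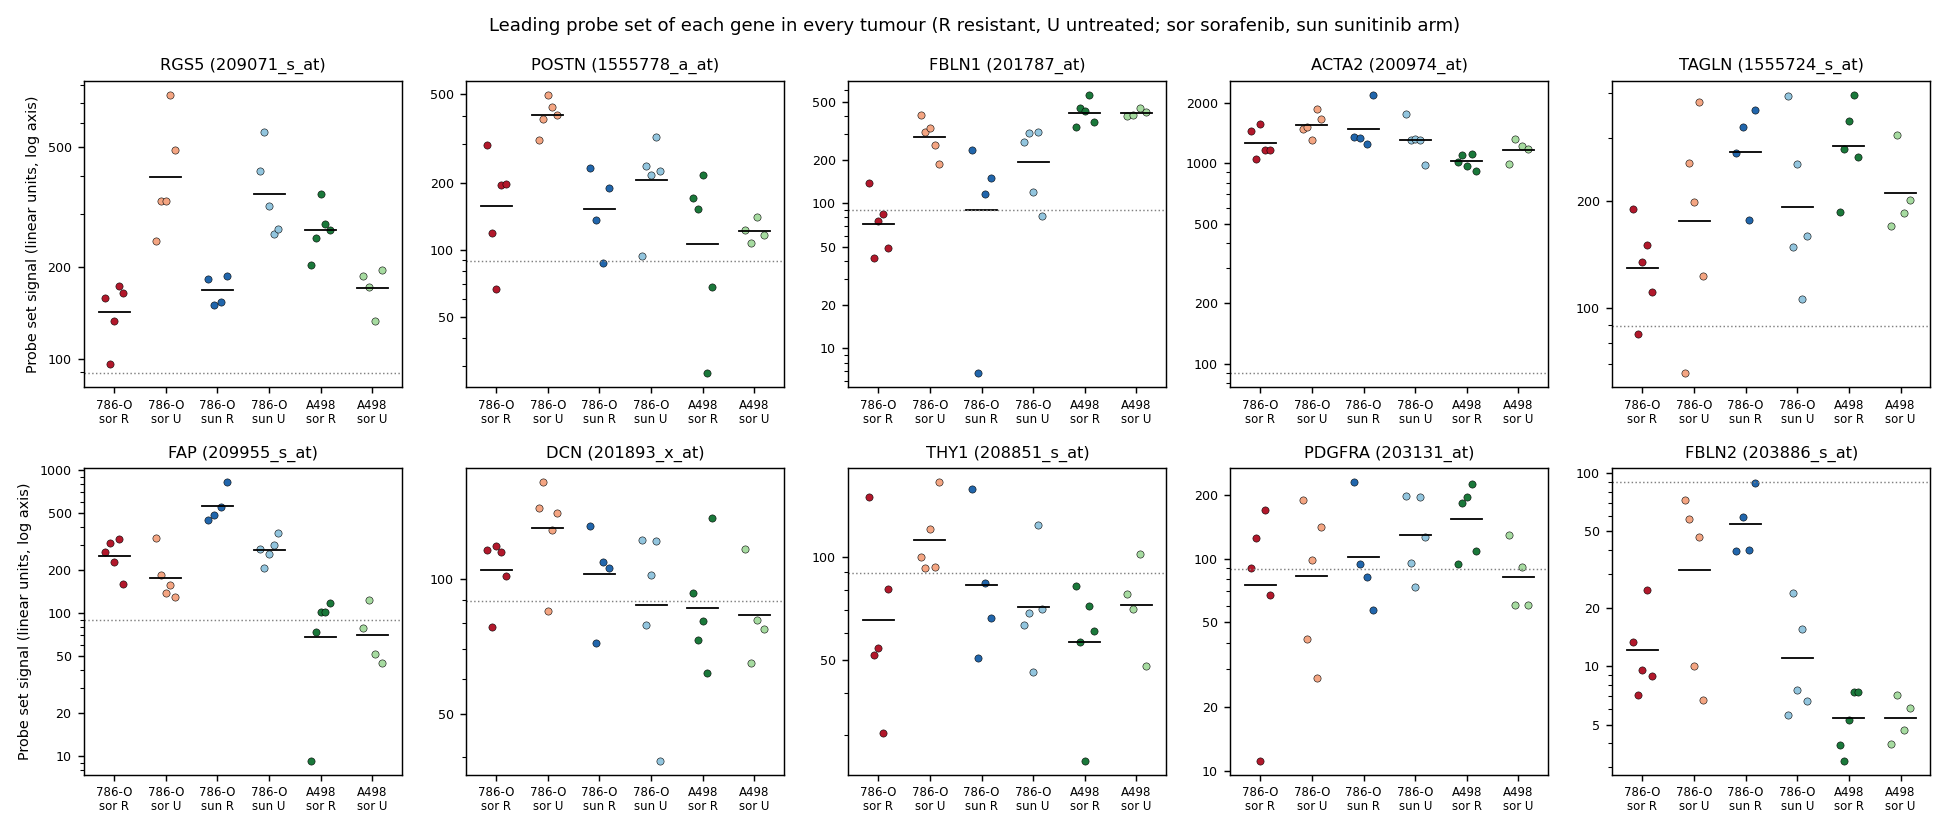
Signal of the leading probe set of each of the 10 genes in all 28 tumours (log axes, linear signal units). Each point is a tumour, grouped by line and arm (sor is sorafenib, sun is sunitinib, R is resistant and U is untreated); the black line is the back-transformed mean of log2(signal + 16) and the dotted line the limit of 89.4. RGS5 shows the clearest gap, with all 5 sorafenib-resistant 786-O tumours at or below 174 and all 5 untreated ones at or above 245.

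The other 6 member genes tested in this arm did not pass. THY1, a surface glycoprotein of fibroblasts and other stromal cells, averaged 73.1 ± 46.0 in resistant and 114 ± 30.6 in untreated tumours (SD, n = 5 each; difference -0.65 ± 0.30, adjusted p = 0.147). Without resistant tumour 1, which at 149 was the highest of its group, the difference was -0.91 with an adjusted p of 0.0322, and over the other alternatives it reached 0.592. ACTA2, the smooth muscle alpha-actin of myofibroblasts and mural cells, read 1453, 1048, 1567, 1169.7 and 1167 in resistant tumours, against 1489, 1515, 1307, 1873 and 1656 in untreated tumours. These ranges overlapped, and the difference was -0.29 ± 0.15 (adjusted p = 0.204). TAGLN, the actin-binding protein transgelin, differed by -0.40 ± 0.34 (adjusted p = 0.478), and the collagen-binding proteoglycan decorin, DCN, by -0.27 ± 0.22 (0.456). FAP, a surface serine protease of activated fibroblasts, was the 1 gene with a positive difference (0.46 ± 0.34, adjusted p = 0.403). PDGFRA, a PDGF receptor that both drugs can inhibit, gave -0.11 ± 0.46 (adjusted p = 0.909), with signals scattered from 11.1 to 170.1 in resistant and from 27.3 to 189 in untreated tumours.

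In 786-O tumours resistant to sunitinib, RGS5 was again lower, as 1 of 9 member genes tested, where 2.84% of all genes tested were called lower and 2.22% higher. The RGS5 signals were 183, 151, 154 and 188 in the 4 resistant tumours, and 416, 562, 319, 258 and 269 in the 5 untreated tumours. All resistant tumours fell below all untreated ones, a separation shared with 4.34% of all genes. The difference was -0.99 ± 0.24 (limma adjusted p = 0.0176), with means of 169 ± 19.3 in resistant and 365 ± 127 in untreated tumours (SD). The call was close to the threshold: it was lost without untreated tumour 2 (-0.83, adjusted p = 0.0540), resistant tumour 2 (0.0515) or resistant tumour 3 (0.0608), and with only the 9 arrays compared in the fit (0.0555). With probe sets ending in _x_at or _s_at left out, another RGS5 probe set stood for the gene and gave -0.90 (adjusted p = 0.157, the highest over the alternatives, against a lowest of 0.00203).

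FAP (chromosome 2, 162170684 to 162243445) had the widest positive difference of the 9 genes in the sunitinib arm. Its signals were 444, 488, 549 and 820.2 in resistant tumours, against 282, 207, 258, 298 and 361 in untreated tumours. All resistant tumours lay above all untreated ones, which held for 4.12% of all genes, but the difference of 0.97 ± 0.37 missed the threshold (limma adjusted p = 0.130). It passed with 64 added to the signal (adjusted p = 0.0310), with only the arrays compared (0.0464) and against both untreated 786-O sets pooled (1.27, 0.0166). Over all alternatives the adjusted p ran from 0.0166 to 0.309.

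FBLN1 and POSTN did not pass in the sunitinib arm. FBLN1 read 234, 6.74, 117 and 151 in resistant tumours, against 266, 306, 119, 310.4 and 81.9 in untreated tumours, with overlap and 1 resistant tumour far below the rest (difference -0.98 ± 0.46, adjusted p = 0.254). POSTN averaged 161 ± 63.3 in resistant and 219.6 ± 81.9 in untreated tumours (-0.40 ± 0.40, adjusted p = 0.654). The remaining genes gave 0.48 ± 0.36 for TAGLN, 0.18 ± 0.16 for ACTA2, 0.18 ± 0.32 for THY1, 0.20 ± 0.24 for DCN and -0.29 ± 0.48 for PDGFRA, with adjusted p from 0.519 to 0.819. The median difference of the 9 genes was 0.18, against -0.01 over all genes tested.

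FBLN2, fibulin-2, was below the limit on all 28 arrays and was not tested with the other genes. Its dim probe set read 39.3, 59.3, 39.7 and 88.4 in sunitinib-resistant tumours, against 5.59, 23.9, 7.54, 15.6 and 6.60 in untreated tumours of that arm. In the sorafenib arm it read 13.3, 7.07, 9.52, 24.8 and 8.86 in resistant 786-O tumours, against 72.8, 57.5, 10.0, 46.6 and 6.68 in untreated ones. The sunitinib groups did not overlap, as for 2.64% of all 41091 probe sets in that direction, and the sorafenib groups did. In a fit of all probe sets with no filter on dim signals the sunitinib difference was 1.38 (limma adjusted p = 0.0214), where 0.526% of all probe sets were called higher. In the same fit the sorafenib difference was -0.76 (adjusted p = 0.130), and it was lower than the sunitinib difference by a tested value of -2.13 (0.0233). The share of all probe sets called in that comparison without the filter is not given here. Of the probe sets that passed the filter, which leave out FBLN2, 0.312% were called lower in it. In A498 tumours FBLN2 read from 3.25 to 7.40 in resistant and from 3.95 to 7.09 in untreated tumours.

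In A498 tumours resistant to sorafenib, none of the 9 member genes tested was called, where 6.34% of all genes tested were called in either direction and 2893 passed 0.05 without adjustment. The median difference of the 9 genes was 0.000290, against 0.03 over all genes. RGS5 read 204, 251, 350.1, 278 and 267 in resistant tumours, against 188, 172, 133 and 196 in untreated tumours. Here the resistant tumours all lay above the untreated ones, as for 4.14% of all genes, and the difference was 0.60 ± 0.24 (limma adjusted p = 0.150). PDGFRA averaged 161 ± 56.9 in resistant and 85.3 ± 32.6 in untreated A498 tumours (0.79 ± 0.48, adjusted p = 0.363). The other 7 differences lay between -0.29 for THY1 and 0.41 for TAGLN, with adjusted p of 0.529 or more. POSTN was widely spread in resistant A498 tumours, from 27.8 to 217, and ran from 107 to 141 in untreated ones.

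**Figure D2:**
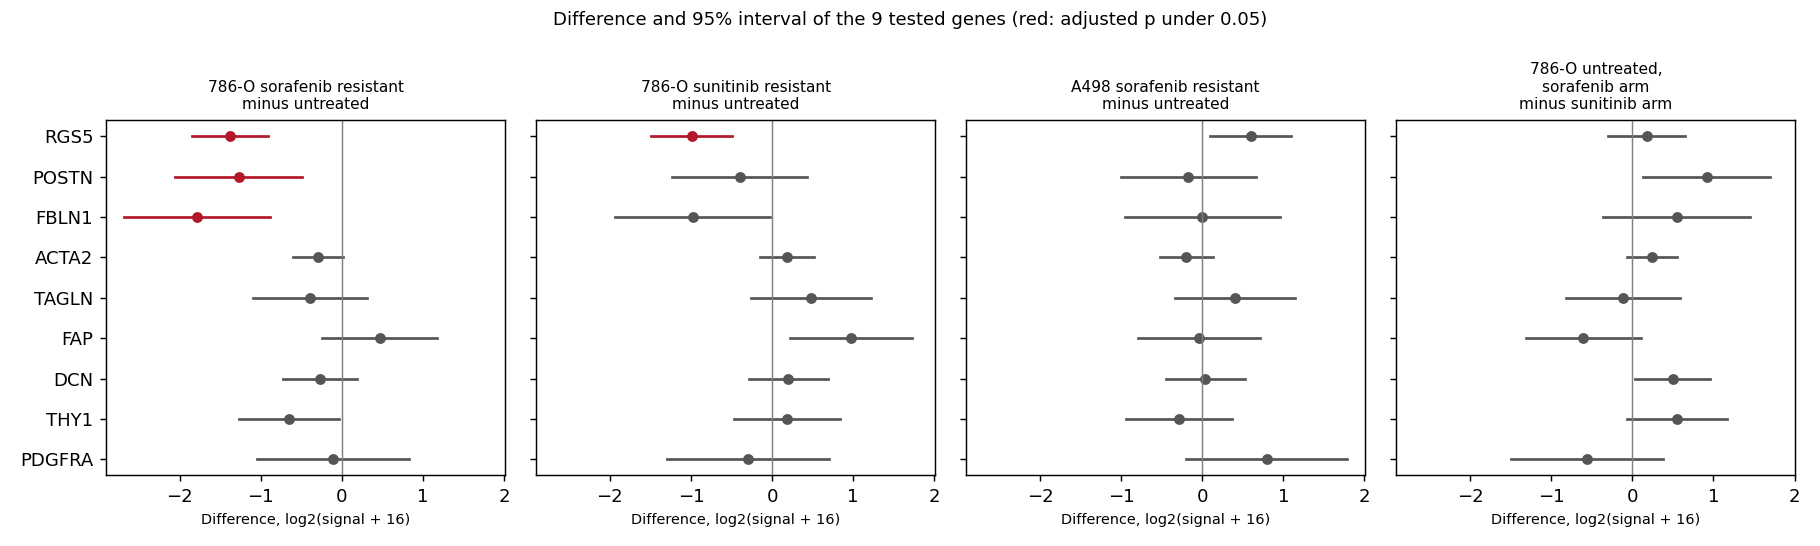
Difference of log2(signal + 16) between resistant and untreated tumours in each arm, and between the untreated 786-O sets, for the 9 genes tested, with 95% confidence intervals. RGS5 lies at -1.38 and -0.99 in the 786-O arms and at 0.60 in A498, and FBLN1 (-1.78) and POSTN (-1.27) have their lowest values in the 786-O sorafenib arm.

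The difference for RGS5 under sorafenib was itself tested between the lines. It was higher in A498 than in 786-O by 1.98 ± 0.33 (limma adjusted p = 0.00111), as 1 of 9 member genes, where 3.02% of all genes tested were called in that direction. The 786-O sorafenib arm carries titles that start with 33 and the A498 arm titles that start with 35, and what this number marks is not given in the sources used here. For FBLN1 the same test gave 1.78 ± 0.64 (adjusted p = 0.105) and for POSTN 1.10 ± 0.55 (0.259). Between the drugs in 786-O, none of the 9 genes differed beyond the threshold, where 0.949% of all genes did. The RGS5 value was -0.39 with a 95% interval of -1.08 to 0.30, the POSTN value -0.87 with an interval of -2.01 to 0.27 and the FBLN1 value -0.81 with an interval of -2.12 to 0.51. These intervals are wide, and do not show that the drugs act alike.

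All 6 RGS5 probe sets were measured, and they fell into unlike groups. In 786-O tumours of the sorafenib arm 4 of the 6 were lower, 209071_s_at, 209070_s_at, 1555725_a_at and 218353_at, with differences of -1.38, -1.15, -2.32 and -1.25 (limma adjusted p of 0.000493 or less over all probe sets tested). The signals of 1555725_a_at were 51.6, 129.9, 12.2, 51.3 and 16.5 in resistant tumours, against 157, 344, 252, 375 and 275 in untreated tumours. Those of 218353_at were 72.1, 70.4, 92.2, 65.0 and 88.3 in resistant tumours, against 209.7, 141, 182, 295 and 229.8 in untreated tumours. None of these 4 probe sets had overlapping groups in this arm, and none in the sunitinib arm. Of all single-symbol probe sets, 4.18% were lower without overlap in the sorafenib arm and 3.12% in the sunitinib arm. The 4 probe sets are for 1 gene, so they are not separate results. The remaining 2 probe sets, 230678_at (0.06 ± 0.21, adjusted p = 0.893) and 1558785_a_at (0.45 ± 0.23, adjusted p = 0.223), did not pass.

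In the sunitinib arm 3 RGS5 probe sets were called lower, 209070_s_at (-1.36 ± 0.22), 209071_s_at (-0.99 ± 0.24) and 218353_at (-0.86 ± 0.19). The signals of 209070_s_at were 37.6, 95.3, 116 and 117 in resistant tumours, against 244, 321, 285, 184 and 205 in untreated tumours. The probe set 1555725_a_at separated the groups as well but missed the threshold (-0.90 ± 0.35, adjusted p = 0.166). In A498, 5 of the 6 differences were positive and none was called. The difference under sorafenib was higher in A498 than in 786-O for the same 4 probe sets, by 1.54 to 2.20 (adjusted p from 0.00152 to 0.0127), where 1.86% of all probe sets tested were called in that direction. Over the 28 arrays the 4 concordant probe sets correlated with each other at r = 0.54 to 0.85, and 230678_at and 1558785_a_at correlated with them at -0.36 to 0.12, as a description of arrays that share groups.

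**Figure D3:**
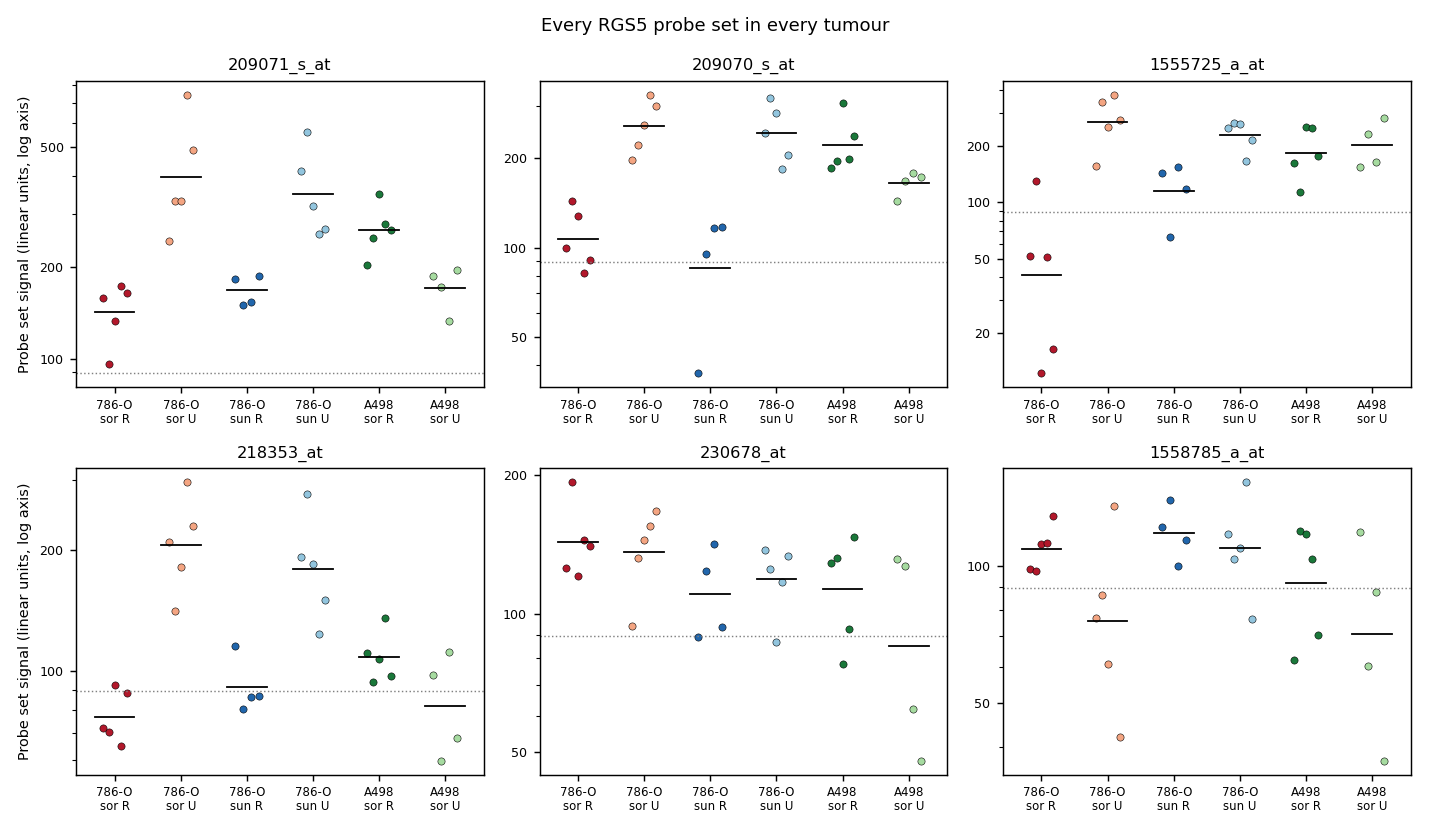
Signals of the 6 RGS5 probe sets in all 28 tumours (log axes, linear signal units), with groups, lines and limit drawn as in the plot of the 10 genes. In 4 panels the resistant 786-O tumours of both arms sit below the untreated ones, and in the panels of 230678_at and 1558785_a_at they do not.

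FBLN1 probe sets differed by cell line. In A498, 202995_s_at read 899 to 1227 in resistant and 769.6 to 1220.3 in untreated tumours, while in 786-O it stayed between 18.3 and 63.0 in resistant and between 12.4 and 88.6 in untreated tumours. The probe set 202994_s_at did the same, with 452 or more in every A498 tumour and 48.9 or less in every 786-O tumour. Both probe sets were above the limit on all 9 A498 arrays and on no 786-O array, so that they passed the filter through A498 alone and no test of this difference is given. Between untreated A498 and untreated 786-O of the sunitinib arm, the leading FBLN1 probe set, 201787_at, differed by 1.07 ± 0.46 (limma adjusted p = 0.0545), and 207835_at by -0.40 ± 0.22 (0.130).

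Within the 786-O sorafenib arm, 2 of the 4 measured FBLN1 probe sets were called lower, 201787_at (-1.78) and 207835_at. The probe set 207835_at read 112, 58.4, 117, 126 and 91.7 in resistant tumours, against 192, 122, 154, 196 and 148 in untreated tumours, with a small overlap (-0.63 ± 0.21, adjusted p = 0.0479). Without the filter on dim signals this call was lost (adjusted p = 0.0778). The probe sets 202995_s_at (-0.56 ± 0.22, adjusted p = 0.0999) and 202994_s_at (-0.28 ± 0.22, 0.464) had the same sign and are dim in 786-O. In A498, where they are bright, 202995_s_at gave 0.11 ± 0.23 and 202994_s_at 0.30 ± 0.24, and neither passed (adjusted p of 0.541 or more).

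**Figure D4:**
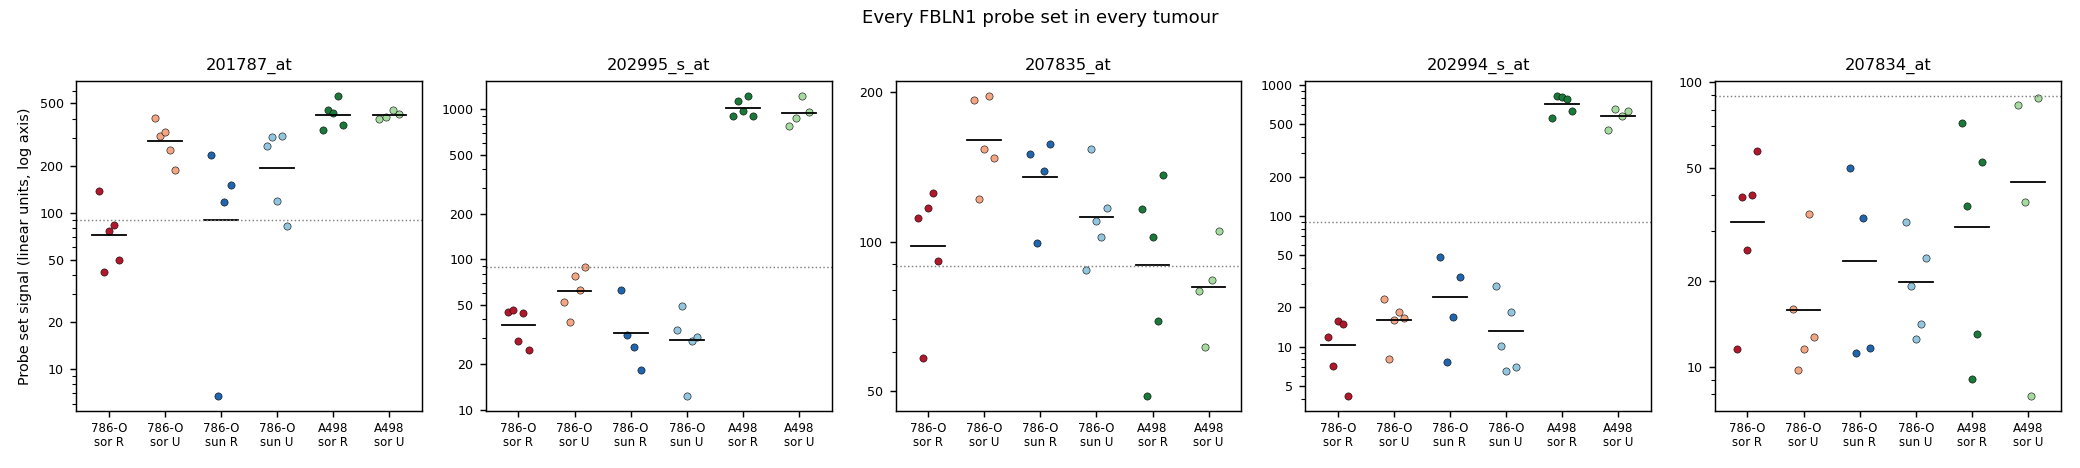
Signals of the 5 FBLN1 probe sets in all 28 tumours (log axes, linear signal units), with groups, lines and limit drawn as in the plot of the 10 genes. The probe sets 202995_s_at and 202994_s_at are bright in A498 alone, and 201787_at is lower in resistant than in untreated 786-O tumours of the sorafenib arm.

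Counted by probe set, 8 of 21 measured member probe sets were lower in the 786-O sorafenib arm, where 6.74% of all probe sets tested were, and 3 of 21 in the sunitinib arm, where 2.06% were. Without the filter on dim signals, 207835_at of FBLN1 lost its call in the sorafenib arm and the other 7 kept theirs. No measured member probe set was called in A498 (4.41% of all in either direction) or between the untreated 786-O sets (0.383%). Since 4 of the 8 belong to RGS5, they are not 8 separate genes. The eighth was 211813_x_at of DCN, with 40.1, 33.3, 28.4, 100.3 and 31.5 in resistant tumours, against 117, 75.9, 106, 230.5 and 165 in untreated tumours. Resistant tumour 4 lay within the untreated range (-1.32 ± 0.38, limma adjusted p = 0.0223). The other measured DCN probe sets, 201893_x_at (-0.27) and 211896_s_at (-0.16), did not pass, and the suffix _x_at marks probes that can bind other transcripts. TAGLN gave -0.40, -0.10 and -0.72 from its 3 probe sets, none of them called.

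The untreated 786-O tumours of the sorafenib and sunitinib arms did not differ beyond the threshold in any of the 9 genes, where 0.275% of all genes tested were called and 1819 passed 0.05 without adjustment. POSTN had the widest difference, with 313 to 497 in the sorafenib arm and 93.5 to 322 in the sunitinib arm (0.92 ± 0.38, adjusted p = 0.289). It was followed by FAP (-0.60 ± 0.34, adjusted p = 0.461), PDGFRA (-0.56 ± 0.46, 0.632), THY1 (0.55 ± 0.30, 0.431), FBLN1 (0.55 ± 0.44, 0.627) and DCN (0.50 ± 0.22, 0.335). RGS5 differed by 0.18 ± 0.23 (adjusted p = 0.798). The higher mean ACTB difference of the sorafenib arm's untreated tumours, given above with its 1 high tumour, lies beside these values. With the ACTB difference as a covariate, or without the 2 arrays where it was highest, again none of the 9 genes was called. Beyond this its part in them was not tested. The untreated groups overlapped in all 9 genes, where 1.83% of all genes were higher and 0.934% lower without overlap.

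Across all 6 groups, RGS5 ran from 145 ± 31.4 (SD) in sorafenib-resistant 786-O through 169 ± 19.3 in sunitinib-resistant 786-O and 172 ± 28 in untreated A498 to 270.1 ± 52.9 in resistant A498, and 365 ± 127 and 428 ± 197 in the untreated 786-O sets of the sunitinib and sorafenib arms. The 3 lowest groups lie within each other's spread, as do both untreated 786-O sets. FAP ordered the tumours by line, with 81.0 ± 43.1 in resistant and 75.1 ± 35.8 in untreated A498, and 188 ± 84.8 or more in every 786-O group. Untreated A498 was below untreated 786-O of the sunitinib arm in 2 of 9 member genes, FAP (-1.76 ± 0.37, limma adjusted p = 0.000189) and RGS5 (-0.97 ± 0.24, 0.00132), where 30.6% of all genes tested were called lower and 27.3% higher. The group means of ACTA2 lay between 1024 ± 86.8 in resistant A498 and 1568 ± 211 in untreated 786-O of the sorafenib arm.

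The 9 tested genes were weakly correlated from tumour to tumour. After each group's mean was removed, the 36 pairs among the 9 genes had a median correlation of 0.10 over 28 arrays, with a range from -0.34 to 0.55. The 2 pairs above 0.5 joined TAGLN with RGS5 (0.55) and ACTA2 with TAGLN (0.52). Among the other genes tested, those whose signals over the 28 arrays were most like a member were FAM110B for RGS5 (r = 0.81), FHDC1 for FBLN1 (0.88), HMMR for POSTN (0.76), P4HA1 for FAP (0.91) and SAMD9L for ACTA2 (0.79). For TAGLN, DCN, THY1 and PDGFRA the best r was 0.70 for NOTCH4, 0.73 for ANAPC15, 0.64 for SLC9A2 and 0.63 for DEPDC5. Each of these r values is the highest of 13799 genes compared over 28 arrays, and none was tested against what such a search gives by itself. These correlations include the differences between the lines and the arms.

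Other stromal genes were examined as lists, which were also chosen with earlier results of these data known. Over all genes tested, 9.18% were called lower and 5.97% higher in the 786-O sorafenib arm. In the 786-O sorafenib arm 5 of 11 fibroblast matrix genes tested were lower and none higher, among them the fibrillar collagen chains COL3A1 (-1.93 ± 0.30), COL1A2 (-1.83 ± 0.27) and COL1A1 (-1.64 ± 0.34) and the microfibril protein MFAP5 (-1.13 ± 0.22). The collagen chains COL6A3 (1.25 ± 0.82, limma adjusted p = 0.336) and COL6A2 (0.36 ± 0.23, 0.321) had positive differences and were not called. The other tested genes of the list had negative ones. The median of the list was -0.94, and its summed signal ran from 18655 to 28282 in resistant and from 25290.2 to 37370.3 in untreated tumours. Of the 4 pericyte genes tested 3 were lower: the potassium channel gene KCNJ8 (-1.39 ± 0.40), desmin, DES (-0.84 ± 0.27), and the adhesion molecule MCAM (-0.66 ± 0.22). Of 6 contractile and SRF target genes tested 3 were lower, the smooth muscle actin ACTG2 (-1.08 ± 0.22), the tropomyosin TPM2 (-0.79 ± 0.22) and the myosin light chain MYL9 (-0.78 ± 0.19). Of 7 fibulins and small leucine-rich proteoglycans tested besides the 10 genes, only EFEMP1, fibulin-3, was lower (-1.06 ± 0.32).

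Ligands and receptors of the PDGF and TGF-beta pathways were mixed in this arm. Of 10 tested, the pericyte-recruiting ligand PDGFB (0.54 ± 0.12) and the receptor TGFBR2 (0.41 ± 0.13) were higher and the ligand TGFB2 (-1.22 ± 0.28) lower. In the sunitinib arm the 5 lists gave 1 call, MYL9, which was higher (0.82 ± 0.20, limma adjusted p = 0.0171). In A498 they gave 1 call, the collagen chain COL5A1, which was higher (1.19 ± 0.34, adjusted p = 0.0329). Between the untreated 786-O sets they gave none. Of all genes tested, 5.06% were called in either direction in the sunitinib arm, 6.34% in A498 and 0.275% between the untreated sets.

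Between the drugs in 786-O, the difference was lower under sorafenib than under sunitinib for COL1A1 (-2.29 ± 0.50, limma adjusted p = 0.0255) and MYL9 (-1.60 ± 0.27, 0.00323), and no other gene of these lists was called. Of all genes tested, 0.949% were called in either direction between the drugs. The difference under sorafenib was also tested between the lines, where 3.02% of all genes tested were called higher in A498 than in 786-O and 2.17% lower. It was higher in A498 than in 786-O in 5 of 11 fibroblast matrix genes, COL3A1 (2.72 ± 0.44), COL1A2 (2.31 ± 0.40), COL1A1 (2.31 ± 0.50), COL5A1 (2.21 ± 0.46) and MFAP5 (1.77 ± 0.32). It was higher in 2 of 6 contractile and SRF target genes, TPM2 (1.28 ± 0.32) and ACTG2 (1.23 ± 0.32), and in none of the 4 pericyte genes. Of the other lists, 1 of 3 endothelial and 1 of 5 macrophage genes were higher in this test. Lower were 1 of 10 PDGF and TGF-beta pathway genes and 1 of 7 renal carcinoma cell markers. The pericyte list summed to between 4982 and 7838 in A498 tumours and to between 583 and 1342 in 786-O tumours. A sum of linear signals follows the brightest genes of a list and does not give the amount of pericytes. Of the 4 pericyte genes tested, 2 were higher and 1 lower in untreated A498 than in untreated 786-O of the sunitinib arm. Of all genes tested, 27.3% were higher and 30.6% lower there.

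**Figure D5:**
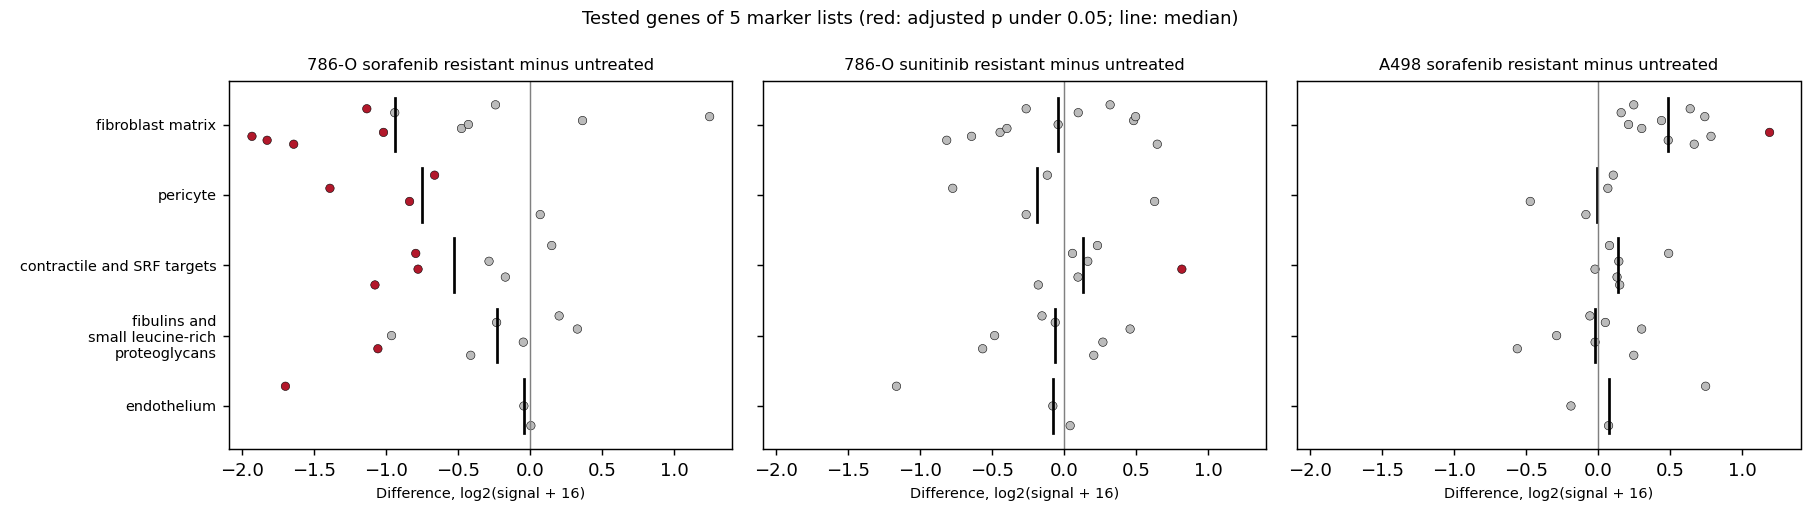
Difference of log2(signal + 16) between resistant and untreated tumours for each tested gene of 4 stromal lists and of the endothelial list, by arm, with called genes in red and a line at each list's median. In the 786-O sorafenib arm the fibroblast matrix list has a median of -0.94 and the pericyte list of -0.75.

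Markers of other cell types were read beside RGS5, FBLN1 and POSTN. Skeletal muscle genes, 6 of 11 of them tested, had a median difference of -0.78 in the sorafenib arm and of 0.74 in the sunitinib arm of 786-O. Of these genes DES alone was called (sorafenib arm), the same call as in the pericyte list. Their summed signal ran from 539.8 to 1059 in resistant and from 683 to 2290 in untreated tumours of the sorafenib arm, and from 948 to 1965 in resistant and from 481 to 1337 in untreated tumours of the sunitinib arm. Of 3 endothelial genes tested the receptor TIE1 was lower in the sorafenib arm (-1.70 ± 0.40), and the list summed to between 379.9 and 653 in resistant and between 567 and 800.3 in untreated tumours. Of 5 macrophage genes tested AIF1 was lower there (-2.33 ± 0.67), with list sums of 453 to 681 in resistant and 587 to 883 in untreated tumours. The other tested genes of both lists were not called. The list medians were -0.04 for endothelial and 0.001 for macrophage genes, against -0.05 over all genes tested, of which 9.18% were called lower. Neither skin and adipose (2 of 7 tested) nor red blood cell markers (1 of 5 tested) held a called gene in that arm. Among renal carcinoma cell markers KRT18 was higher (0.42 ± 0.12) and PAX2 (-0.86 ± 0.29) and CDH6 (-0.68 ± 0.13) lower. The part of these cell types in the member genes' differences was not tested.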

How the data were processed

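Total RNA was extracted with Trizol from snap-frozen tumours and labelled with biotin, per the labels' protocols. The deposited values are linear intensity values per probe set, scaled by the authors so that every array has a 2% trimmed mean of 500.06 to 500.07. RMA and MAS5 are named, per the submitters' processing notes, with neither a version nor a role, and which of them gave the values is not given in the sources used here. Signals ran from 0.0875 to 64034.6, and the number of arrays limits the precision.

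From these values log2(signal + 16) was computed. Of 54675 probe sets, 62 are controls, 41091 have 1 gene symbol, 1801 several and 11721 none. Symbols were updated through the Entrez ID in 41037 and kept by symbol in 54. A gene was represented by its single-symbol probe set of highest mean, and 13808 of 19775 genes and 26924 probe sets passed the filter on dim signals, which left out 5967 genes. limma 3.58.1 (R 4.3.3) fitted a mean for each of the 6 groups to the 28 arrays together, with no covariate, once over genes and once over probe sets, and p-values were adjusted by Benjamini-Hochberg over all features tested. It was tested on simulated data. Replicate numbers follow the order of deposition only. The text names all 10 genes, up to 4 called genes per list and comparison (5 for fibroblast matrix between the lines), and of the 3 genes most like each member the first. It also names COL6A3 and COL6A2, which were not called in the 786-O sorafenib arm. The members and lists were chosen with earlier results of these data known. Alternatives were values of 1 and 64 added, no filter, a filter at the 75th percentile, averaging each gene's probe sets, dropping those that end in _x_at or _s_at, quantile normalisation, centring, array weights, trended robust variance, only the arrays compared, a covariate for the ACTB difference, dropping the 2 arrays where it was highest, pooled untreated 786-O tumours, and each array left out. Those for the difference between the lines in RGS5 were added after seeing the data. Plots were made in Python 3.11.15 with matplotlib 3.10.9.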

Additional observations from a re-analysis of the deposited data

Results flagged for a closer look

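For RGS5 the difference between resistant and untreated tumours of the sorafenib arms was higher in A498 than in 786-O by 1.98 ± 0.33 on the log2 scale (limma adjusted p = 0.00111), with 0.60 in A498 and -1.38 in 786-O. In all 12 other settings and with any of the 19 arrays left out it stayed past the threshold, at 1.24 to 2.20. The arms also differ in the number that starts their titles, 35 for A498 and 33 for 786-O, and treatment and tumour size cannot be told apart.

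A single tumour stood apart from its group in 2 of the 60 sets of member gene and group examined, where chance alone gives about 5%. In resistant A498 tumours of the sorafenib arm, FAP read 9.28 in tumour 1 and between 73.4 and 117.5 in the other 4. In resistant 786-O tumours of the sunitinib arm, ACTA2 read 2193 in tumour 4 and between 1247 and 1349 in the other 3.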

How the results depend on the processing

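No paired analysis was possible because the labels give no replicate numbers and the numbers used here follow the order of deposition only. Of 799 values of single member genes under alternatives, 747 kept their direction and side of the threshold, 12 lost and 4 gained a call, and 36 changed sign. None of the sign changes concerned a called gene, and the smallest adjusted p among them was 0.427. Centring moved the median difference of all genes by at most 0.0926 and quantile normalisation by at most 0.0227. The count of member genes called lower in the 786-O sorafenib arm, 3, was 0 with the stricter filter, which left 1 member to test. With the mean of probe sets it was 1, where 5 members could be tested and POSTN was not among them. With an array left out it was 2 to 4. In the sunitinib arm the count of 1 became 2 with 64 added, without a filter and with pooled untreated tumours, 0 with the stricter filter and without probe sets ending in _x_at or _s_at, and 0 to 1 with an array left out. Of all genes, 2092 were called in the sorafenib arm, 1233 without the 2 arrays of highest ACTB difference and 1579 to 1931 with an array left out. In the sunitinib arm 698 became 259 with only the arrays compared, 1326 with pooled untreated tumours and 313 to 659 with an array left out. In A498, 875 became 1316 with array weights, 185 with only the arrays compared and 467 to 1020 with an array left out. Between untreated 786-O sets 38 became 25 with 1 added, 20 without a filter, 17 with the stricter filter, 21 with centring, 91 with array weights, 0 with only the arrays compared (limma; the same arrays gave 1819 genes at an unadjusted p under 0.05 in the fit over all groups), 24 with the ACTB covariate, 24 without the 2 arrays and 14 to 50 with an array left out.

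The sign changes were in genes that did not pass. In the sunitinib arm they were DCN (-0.048) and THY1 (-0.10) with pooled untreated tumours and ACTA2 (-0.093) with the mean of probe sets. In A498 they were DCN with quantile normalisation (-0.034) and centring (-0.015), FBLN1 with 1 added (-0.000406), quantile normalisation (-0.00845) and centring (-0.054), FAP with 64 added (0.025) and RGS5 without probe sets ending in _x_at or _s_at (-0.12). Between untreated sets they were ACTA2 (-0.00271) and TAGLN (0.19) with the mean of probe sets, and TAGLN without probe sets ending in _x_at or _s_at (0.49), with the ACTB covariate (0.021) and without the 2 arrays (0.00104). With an array left out, values crossed 0 for PDGFRA in the sorafenib arm (-0.41 to 0.33), for DCN (-0.026 to 0.34), THY1 (-0.091 to 0.37) and ACTA2 (-0.00306 to 0.29) in the sunitinib arm, for DCN (-0.11 to 0.18), FBLN1 (-0.10 to 0.078), POSTN (-0.40 to 0.20) and FAP (-0.20 to 0.40) in A498, and for TAGLN (-0.37 to 0.19) and RGS5 (-0.043 to 0.34) between untreated sets. The cause was not tested. Low signal over background limits 16 of the 37 member probe sets, and groups of 4 or 5 limit all of them.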

Other observations

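Some member probe sets below the limit were also read, from a fit of all 41091 single-symbol probe sets with no filter. The POSTN probe set 214981_at read 6.88, 6.57, 4.41, 6.87 and 2.24 in sorafenib-resistant 786-O tumours, against 12.9, 18.3, 20.0, 43.8 and 13.0 in untreated ones, without overlap, which held for 4.18% of all probe sets in that direction (difference -0.76, limma adjusted p = 0.0867). The untreated 786-O sets did not overlap in it either, with 0.89 to 11.01 in the sunitinib arm (0.88, adjusted p = 0.160), where 1.57% of all probe sets were higher without overlap in the sorafenib arm. The PDGFRA probe set 215305_at read 40.6, 17.2, 52.1, 17.5 and 17.8 in the same resistant tumours, against 11.5, 16.5, 15.6, 16.9 and 15.4 in the untreated ones, with the resistant tumours above by a narrow gap, which held for 3.19% of all probe sets (0.46, adjusted p = 0.337). In this probe set, too, the untreated sets did not overlap, with 8.22 to 11.1 in the sunitinib arm (0.26, adjusted p = 0.730). The THY1 probe set 208850_s_at passed the limit on 2 of 28 arrays.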
